A study of Mus musculus with 12 samples.

Results

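The net change from uninfected Sca-high cells to Sca-high cells that carried a miR-34a vector and had been induced was measured across all genes. It used 6 of the 12 RNA-seq libraries of the series, 3 of each kind, chosen by their sample labels and by no measured value. All libraries were made from CommaDβ, a normal line of mouse mammary epithelium. Sorting on stem cell antigen-1 (Sca-1) splits it into a Sca-high fraction, basal and progenitor-like, and a Sca-low fraction, luminal. The uninfected Sca-high libraries came from cells sorted for high Sca-1 with no vector and no doxycycline. The Sca-high34a libraries came from Sca-1-positive cells that had been infected with a lentiviral vector coding for miR-34a under a doxycycline-inducible promoter and then given doxycycline for 24 h. The 3 Sca-highNT libraries came from cells with the same vector that were not induced, and they were used here to split the net change into a vector step (Sca-highNT against uninfected cells) and an induction step (Sca-high34a against Sca-highNT). The remaining 3 libraries, of uninfected Sca-low cells, entered the estimate of spread and the filter on low values. Through that filter 303 genes were tested, and 140 of them called, although they were below 1 RPKM in all 9 Sca-high libraries. Infection, the vector, doxycycline and the miRNA all differ between the groups of the net comparison and cannot be told apart in it, and the induction step has no library of cells with a control vector under doxycycline. No source used here says that the 3 libraries of a group were separate cultures, so a p-value here covers no more than how far these particular libraries scatter, and that scatter may be technical.

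A microRNA guides the Argonaute complex to messenger RNAs through its seed, the bases near its 5′ end, and the bound transcripts are repressed and often degraded. The miR-34 family is known as a transcriptional target of p53 and as a brake on proliferation that lowers cyclins, cyclin-dependent kinases, MYC, Notch receptors and anti-apoptotic proteins. In the mammary epithelium it has been linked to the restraint of stem and progenitor cells and to luminal commitment.

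The mature miR-34a-5p of the mouse is shown because its seed sets which sites are counted below, with miR-34b-5p of the same family beneath it. Both are RNA from 5′ to 3′ as annotated by RefSeq on GRCm38.p6, miR-34a-5p at chr4:150068473-150068494 on the plus strand and miR-34b-5p at chr9:51103610-51103632 on the minus strand, and capitals mark the seed, bases 2 to 8, which they share:
mmu-miR-34a-5p: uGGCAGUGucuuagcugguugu
mmu-miR-34b-5p: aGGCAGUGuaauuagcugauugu

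Matches to that seed are shown for 5 genes of the list of reported miR-34 targets, chosen after their values were seen. Each run is the sense strand of a 3′ UTR (GRCm38, GENCODE vM21), with the 8-base match to the seed followed by A in capitals. Such a match was in 20 listed targets, and the 5 were taken from the 12 of these that were lower in the net comparison. All 5 are net falls by that choice, and Snai1 fell in the vector step alone. The Ccne2 site lies at chr4:11203176-11203201 on the plus strand, the Axl site at chr7:25758611-25758636 on the minus strand, the Cdk6 site at chr5:3522975-3523000 on the plus strand, the Notch2 site at chr3:98149587-98149612 on the plus strand and the Snai1 site at chr2:167542119-167542144 on the plus strand:
Ccne2: tccttgtctaaggagttaCACTGCCA
Axl: ctcaggacccaagctaggCACTGCCA
Cdk6: tcacagctctgctgccgaCACTGCCA
Notch2: cagagatgaagaagacaaCACTGCCA
Snai1: ggagctcaccctcctcctCACTGCCA

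The deposited values are RPKM, reads scaled by gene length and library depth, and between 33668289 and 39953194 reads per library could be recovered from them for the 6 libraries. All levels below are RPKM after a common scaling between libraries, in the order of libraries 1, 2 and 3 (uninfected), 7, 8 and 9 (Sca-highNT) and 10, 11 and 12 (Sca-high34a). Library 3 stood apart from the other uninfected libraries and library 12 from the other induced ones: the chi-square per gene between pairs was 86.28 and 46.24 for the pairs with library 3 against 27.41 without it, and 60.06 and 118 for the pairs with library 12 against 15.14 without it. Deviations of the genes from their group mean ran with gene length in opposite directions (Spearman's rho of 0.313, 0.387 and −0.515 in libraries 1, 2 and 3, and −0.36, −0.425 and 0.464 in libraries 10, 11 and 12, across genes, which are not independent replicates). Lead counts are therefore also given without libraries 3 and 12. The labels fit the markers of the line: Krt5 and Trp63, of basal cells, were at 392 to 598 and 17 to 19 RPKM in the uninfected libraries, and Ly6a, the gene of Sca-1, at 9.93 to 13.4 RPKM against 0.995 to 1.88 RPKM in the Sca-low libraries. Markers of other cell types were near 0, with summed levels over 10 leukocyte genes of 1.11 to 1.5 RPKM in the uninfected and 1.23 to 1.45 RPKM in the induced libraries, over 9 endothelial genes of 0.395 to 0.509 and 0.207 to 0.343 RPKM, over 9 fibroblast genes of 1.14 to 1.55 and 0.58 to 0.728 RPKM, and over 8 adipocyte genes of 0.341 to 0.647 and 0.242 to 0.46 RPKM.

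Reads at the Mir34a gene followed the titles of the samples. There were 0, 0 and 3 in the uninfected libraries, 3, 8 and 4 in the Sca-highNT libraries and 744, 632 and 1137 in the Sca-high34a libraries. Per unit of depth this was 790 times the uninfected level over the 3 libraries of each group (exact 95% interval from 270 to 3836, for counting error only), and the Sca-highNT level was 4.49 times the uninfected one (1.27 to 24.19). The fitted log2 difference of the net comparison, 9.13 (SE 0.675, adjusted p = 2.04e-07), depends on the constant added before the logarithm. These libraries measure the precursor transcript, from the genome or the vector, and not the mature miRNA.

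After 24 h of induction, every tested gene of the 2 cell cycle lists was lower in Sca-high34a cells than in cells that had never met the vector, and 20 of 32 interferon genes and 25 of 36 lysosome genes were higher. Genes of cholesterol synthesis (28 of 33) and of the chemokine response (20 of 35) were also higher than in uninfected cells, and for most of these the rise came with the vector step. Lysosome genes rose in both steps, with 12 higher and 3 lower in the vector step and 18 higher and 2 lower in the induction step. Of 10586 genes tested, 5020 (47.4%) were called, 2343 (22.1%) higher and 2677 (25.3%) lower, where a call needs an adjusted p below 0.01 by limma and a log2 fold change beyond 0.5 in size. Among the called genes 2298 changed by more than 2-fold, and changes over 8-fold were 49 rises and 248 falls. The libraries of the 2 groups did not overlap for 68.4% of the tested genes. Without libraries 3 and 12, 2759 genes were called higher and 3054 lower. With the trimmed mean taken over all genes, an alternative scaling chosen after seeing the data, the median log2 fold change over all tested genes was 0.121 instead of −0.017, and the split was 3037 higher and 2248 lower, so that 57.5% of the calls were rises instead of 46.7%.

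**Figure D1:**
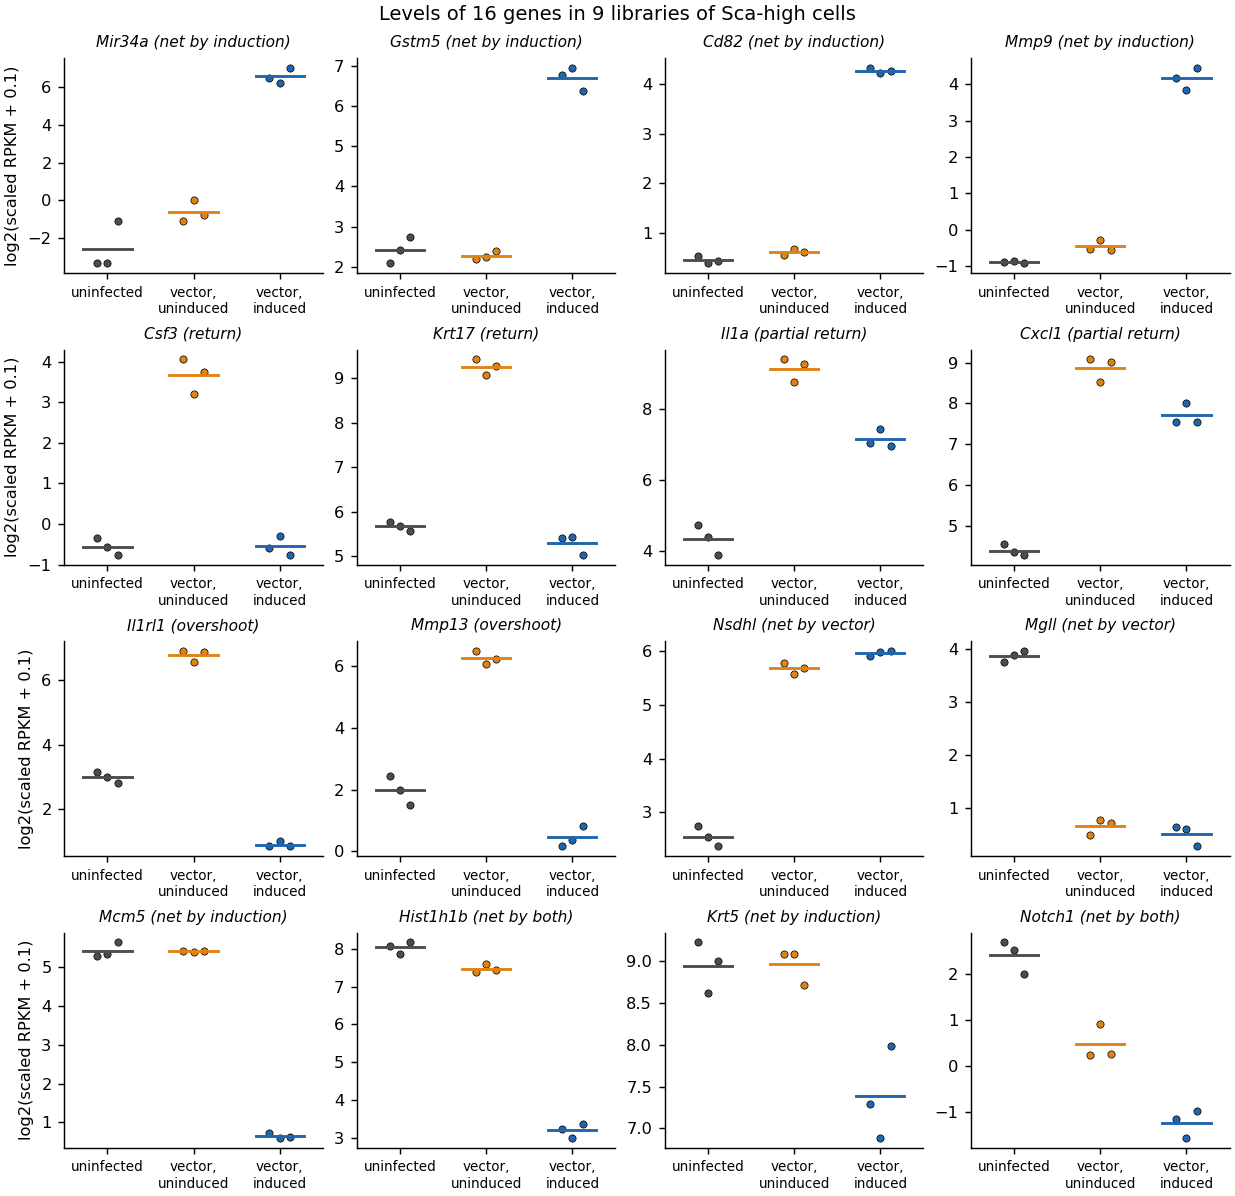
Levels of 16 genes in the 9 Sca-high libraries as log2 of scaled RPKM plus 0.1, with a point per library and a line at each group mean, for uninfected cells, cells with the uninduced vector and induced cells. The pattern of each gene is given above its panel: Gstm5, Mmp9 and Cd82 were level until induction, Csf3 came back to the uninfected level, Krt17 came to just below it without a call, and Il1rl1 and Mmp13 ended below it.

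Among genes that reached 5 RPKM in either group, the largest rise after Mir34a was that of Mmp9, coding for a gelatinase that is secreted and cleaves basement membrane collagen. It was at 0.448, 0.452 and 0.43 RPKM in the uninfected libraries, 0.596, 0.72 and 0.589 in the Sca-highNT libraries, and 17.9, 14.3 and 21.7 in the Sca-high34a libraries (log2 fold change 5.04, SE 0.146, adjusted p = 5.11e-11). The rise thus lay in the induction step (4.60), since the vector step gave 0.43 and was not called. Gstm5, a glutathione S-transferase of the mu class, behaved likewise, with 4.14, 5.22 and 6.63 RPKM before and 108, 123 and 82.2 RPKM after (4.27, SE 0.184, adjusted p = 1.67e-09) and a vector step of −0.14. Reads from its close relatives could have been split between copies by the counting. Cd82, a tetraspanin known as a suppressor of metastasis and a p53 target, went from 1.36, 1.21 and 1.26 RPKM to 19.9, 18.5 and 19.1 RPKM (3.80, SE 0.0646, adjusted p = 2.71e-12). Twf2, an actin-binding twinfilin, reached 44.9, 47.7 and 36.6 RPKM from 1.83, 2.05 and 2.34 RPKM (4.31), and Lgals9, the galectin-9 gene, 14.3, 15.4 and 13.8 RPKM from 1.11, 1.07 and 1.06 RPKM (3.63). These genes were chosen among those whose induced and uninfected libraries did not overlap, so their separation is no result. It held for 68.4% of all tested genes. In each of the named genes the Sca-highNT mean was within 1 log2 unit of the uninfected mean.

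Other large rises were built from both steps or from the vector alone. Igfbp7, a secreted protein that binds insulin-like growth factors, was at 6.85, 6.07 and 5.19 RPKM, then 50, 44 and 50.9 RPKM with the uninduced vector, then 185, 200 and 157 RPKM (net 4.88, vector step 2.98, induction step 1.90). Stap2, a signalling adaptor, rose by 0.83 and then 3.39 to reach 17.1 RPKM in every induced library. Aldoc (aldolase C), Mocos (molybdenum cofactor sulphurase) and Ptpn22 (a tyrosine phosphatase) had net log2 fold changes of 3.92, 3.86 and 3.86 in the same manner, with vector steps of 1.21, 1.62 and 3.09. Prnd, the gene of the prion-like protein doppel, was instead raised by the vector step alone: it was at 0.675, 0.55 and 0.421 RPKM, at 9.73, 7.2 and 8.84 RPKM before induction and at 7.68, 8.57 and 7.91 RPKM after it (net 3.67, induction step −0.08). The net difference of Prnd therefore contained no called response to induction.

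Genes of the cell cycle fell, and nearly all of that fall belonged to the induction step. Of 53 tested genes of the G1/S transition and DNA replication, 53 were called lower (25.3% over all tested genes), with a median log2 fold change of −2.79 against −0.017 over all tested genes, and of 52 genes of G2/M and mitosis 52 were called lower, with a median of −3.77. Their median vector steps were −0.10 and −0.11. Mcm5, a subunit of the helicase that unwinds DNA for replication, was at 39.1, 40.7 and 49.8 RPKM in uninfected cells, 42.7, 41.9 and 43 RPKM with the uninduced vector and 1.54, 1.41 and 1.45 RPKM after induction (−4.78, SE 0.0849, adjusted p = 2.75e-12). Pole, the catalytic subunit of DNA polymerase epsilon, went from 11.4, 11.9 and 11.8 RPKM to 0.567, 0.503 and 0.599 RPKM (−4.17). The mitotic genes Anln (anillin of the cleavage furrow) and Cenpa (the centromeric histone variant) held their level in the vector step, at −0.03 and −0.08, and ended at 4.43, 4.15 and 4.47 RPKM from 50.4, 52.3 and 52.8 RPKM, and at 2.16, 2.01 and 2.11 RPKM from 27.2, 25.5 and 27.9 RPKM (−3.55 and −3.62). Mki67, coding for the proliferation antigen Ki-67, had already fallen in the vector step, from 65.3, 65.9 and 59.1 RPKM to 44.4, 41.4 and 43.9 RPKM (−0.55), before it reached 2.48, 2.24 and 2.8 RPKM (net −4.61). Without libraries 3 and 12, 52 genes of the G1/S list were called lower, and with the trimmed mean over all genes 51, and the count of the G2/M list was 52 under both. In bulk libraries fewer cells of a type, such as cells in S phase or mitosis, and less RNA per cell cannot be told apart.

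Histone genes held the largest falls among genes of at least 5 RPKM. Hist1h2af went from 34.3, 31.6 and 30.3 RPKM to 0.582, 0.369 and 0.674 RPKM (−5.68), and Hist1h1b, a linker histone, from 270, 232 and 286 RPKM to 9.44, 7.96 and 10.3 RPKM (−4.82, SE 0.105, adjusted p = 5.85e-12). A further 8 replication-dependent histone genes among the largest falls (Hist3h2ba, Hist1h2bh, Hist1h3b, Hist1h2bl, Hist1h2bn, Hist1h2ak, Hist1h2bk and Hist1h2an) had net log2 fold changes between −5.59 and −4.64. Histone genes are near-identical copies, so the split of reads between them is uncertain. The 12 largest falls were these 10 histone genes, Mcm5 and Krt15, a keratin of basal epithelial cells. Levels of Krt15 were 5.67, 5.37 and 7.8 RPKM, then 0.375, 0.613 and 0.459 RPKM, then 0.147, 0.0983 and 0.0737 RPKM (−4.95), and most of its fall came with the vector step (−3.46).

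Windows from 5 promoters are shown because their letters recur around the start sites of genes that fell. The printed matches in Cenpa and Anln begin after the start site, and the others before it. DNA is from RefSeq on GRCm38.p6, 5′ to 3′ on the strand of the gene, with the matched letters in capitals. They lie at chr8:75109346-75109373 (Mcm5, plus strand), chr1:128359798-128359825 (Mcm6, minus strand), chr5:30666891-30666918 (Cenpa, plus strand), chr7:135716479-135716506 (Mki67, minus strand) and chr9:22389169-22389196 (Anln, minus strand):
Mcm5: cgccaagaacTTTCGCGCcaaaacgtcc
Mcm6: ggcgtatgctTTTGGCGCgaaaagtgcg
Cenpa: gcgggtgatttTTTGAActgctggcgac
Mki67: tagcgccagaaTTTGAAccgccgttttg
Anln: gggcgctgaaaTTCAAAttttgaacggc

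Promoters of 300 bases, from 250 before to 50 after the start of the gene, were searched on both strands. The cell cycle homology region was taken as TTTGAA, and the E2F element as any of TTTGGCGC, TTTCGCGC, TTTCCCGC and TTTGCCGC. TTTGAA was found in 32 of 43 promoters of the G2/M list (74.4%), in 11.9% of the 42 promoters of the G1/S list, in 11.7% of the 8412 tested genes with a promoter and in 18.1% of all 27025 promoters. An E2F element was found in 17 of the 42 G1/S promoters (40.5%), in 6.98% of the G2/M promoters, in 4.71% of the tested genes and in 2.32% of all promoters. A match is a description of the letters and not a bound site.

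Of 27 tested genes of p53 and its targets, 10 were called higher (22.1% over all tested genes), 4 lower (25.3% over all tested genes) and 13 neither, with a median log2 fold change of 0.25. Cdkn1a, coding for the cyclin-dependent kinase inhibitor p21, was at 3.62, 2.45 and 2.2 RPKM, then 9.54, 7.89 and 7.02 RPKM, then 23.5, 19.6 and 44.4 RPKM (3.29, SE 0.284, adjusted p = 8.21e-07), so that its net rise was made of a vector step of 1.55 and an induction step of 1.74, and library 12 lay farthest from the other induced libraries. Trp53inp1, a stress protein induced by p53, rose in the induction step alone, from 0.758, 0.833 and 0.864 RPKM to 6.52, 7.33 and 6.77 RPKM (2.92). The 4 that fell were Ei24 (−1.15), Ddb2 (−0.80), Phlda3 (−0.76) and Tnfrsf10b (−0.50), and Trp53 itself was not called (−0.41, adjusted p = 6.68e-04), although it was with the trend with gene length removed (−0.50). With a constant of 1 Ddb2 was not called (−0.37). Among 20 genes of senescence and the nuclear lamina, 12 were lower and 4 higher. Tmpo and Lmnb2, of the lamina, fell by 2.36 and 2.08 on the log2 scale, while the higher genes were Igfbp7, Cdkn1a, Cdkn2b (1.10) and Glb1 (0.96), which codes for the lysosomal beta-galactosidase. Of 41 genes of MYC and ribosome biogenesis, 18 were lower and 2 higher (9 and 4 with the trimmed mean over all genes). Odc1, of polyamine synthesis, rose with the vector and stayed above the uninfected level (53.6, 51.7 and 56.2 RPKM against 131, 134 and 132 RPKM), and Nme1 rose by 0.93 with neither step called.

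The net change was next read against its steps. The vector step and the induction step share the Sca-highNT libraries, and each shares libraries with the net comparison, so their values are set side by side and no agreement between them is counted as a result. The vector step called 2282 genes (21.6%), 1103 higher (10.4%) and 1179 lower (11.1%), and the induction step called 4122 genes (38.9%), 1855 higher (17.5%) and 2267 lower (21.4%). A return was a gene that moved one way in the vector step and the other way in the induction step, with no net call and a 95% interval of the net difference within 1 log2 unit of 0 on either side. There were 441 returns, 217 of them raised and 224 lowered by the vector, and 7 more genes of this kind had a wider interval. In 170 genes the induction step carried the level past the uninfected level to a net call (overshoot, 88 higher and 82 lower), and in 121 genes it took back part of the vector step and left a net call in the direction of the vector (82 higher and 39 lower). The net calls were otherwise made by the induction step alone in 2438 genes, by the vector step alone in 859, by both steps in the same direction in 409 and by the sum of steps of which neither was called in 1023. The last of these classes was the least settled: 451 of its genes (44.1%) were in it without libraries 3 and 12, and 556 (54.3%) once the trend with gene length was removed. Of the 2282 genes called in the vector step, 32.4% were called in the opposite direction on induction. From the side of the induction step, 3017 of its 4122 calls were also net calls in the same direction, 984 were not net calls and 121 were net calls in the opposite direction.

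**Figure D2:**
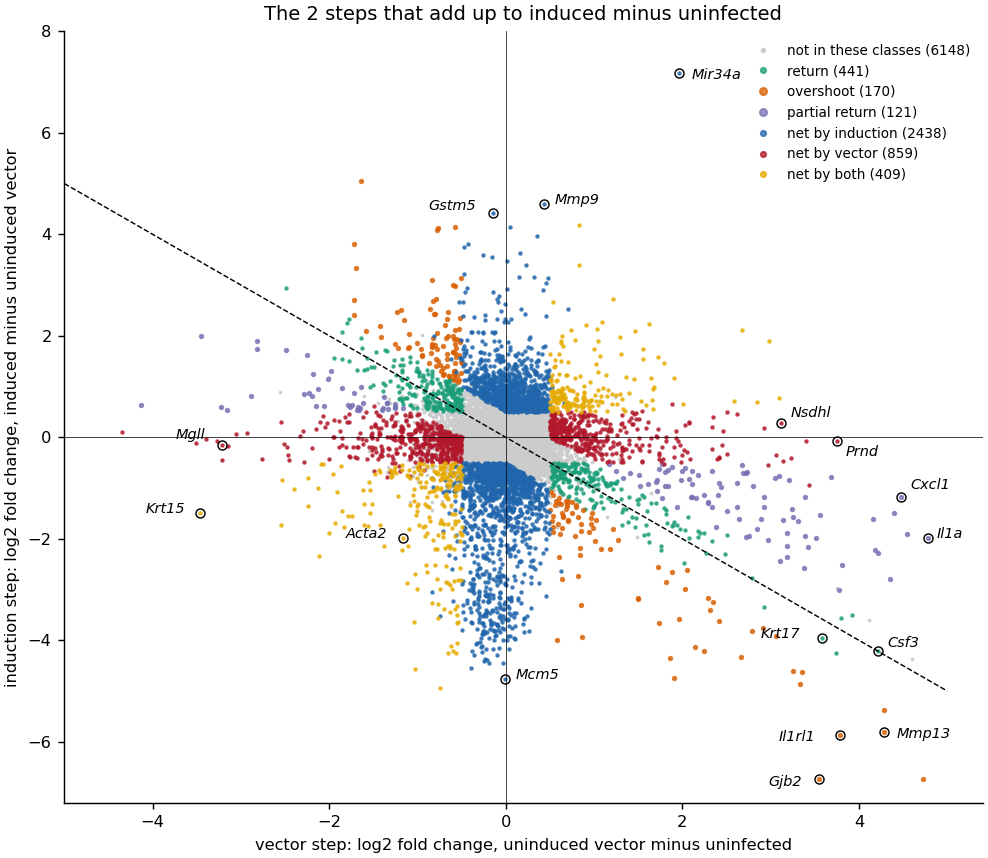
Vector step (x axis) against induction step (y axis), both as log2 fold change, for all 10586 tested genes, coloured by the class of the net change, with 16 genes circled. On the dashed line the steps cancel: returns lie along it, overshoots lie beyond it on the side of the induction step, and the axes share the Sca-highNT libraries, so a slope between them is not a result.

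Among the returns the largest vector steps belonged to Csf3, Il24, Mmp3, Krt17 and Ch25h. Csf3, coding for granulocyte colony-stimulating factor, was at 0.687, 0.576 and 0.491 RPKM in uninfected cells, 16.5, 9.02 and 13.3 RPKM with the uninduced vector and 0.565, 0.709 and 0.49 RPKM after induction. The uninfected and induced libraries overlapped, and the net log2 fold change was 0.01 (SE 0.199, adjusted p = 0.982) between steps of 4.22 and −4.21. Il24, a cytokine of the IL-10 family, went from 1.54, 1.61 and 1.45 RPKM through 31.8, 14.8 and 24.6 RPKM back to 1.86, 2.07 and 1.56 RPKM (0.23, adjusted p = 0.337). Krt17, a keratin of activated basal cells, went from 54.2, 51.2 and 47.2 RPKM through 685, 535 and 615 RPKM to 42.5, 42.9 and 32.5 RPKM, and Mmp3, the stromelysin-1 gene, from 12.2, 10.9 and 9.47 RPKM through 153, 130 and 156 RPKM to 7.74, 8.87 and 6.41 RPKM. For these 2 genes every induced library lay below every uninfected one, and the net differences (−0.38, adjusted p = 0.043, and −0.50, adjusted p = 0.0454) did not pass the adjusted p of 0.01, though they passed one of 0.05. Induction steps of −3.96 and −4.25 thus stood beside net differences that were not called. With the trend with gene length removed, Krt17 was called lower (−0.58) and so counted as an overshoot. Ch25h, cholesterol 25-hydroxylase, ended at 2.96, 3.66 and 2.63 RPKM from 2.17, 2.02 and 1.87 RPKM (0.58, adjusted p = 0.0143) and kept its class in 6 of 21 alternative settings, so its place among the returns was not secure. Of the 441 returns, 344 (78%) were returns without libraries 3 and 12.

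Among the 82 overshoots that ended lower, the 5 with the largest induction steps were Il1rl1, Gjb2, Prl8a9, Mmp13 and Mmp10. Il1rl1, the receptor for interleukin-33, was at 8.87, 7.89 and 7.01 RPKM, then 120, 95 and 117 RPKM, then 1.72, 1.93 and 1.71 RPKM (net −2.08, SE 0.191, adjusted p = 1.38e-06), and every induced library lay below every uninfected one. The induction step of −5.87 was the sum of the vector step undone, 3.79, and the net fall. Gjb2, coding for the gap junction protein connexin 26, went from 2.86, 2.65 and 1.67 RPKM through 31.2, 26.2 and 28 RPKM to 0.165, 0.196 and 0.149 RPKM (net −3.18, induction step −6.73). Prl8a9, of the prolactin family, had an induction step of like size (−6.74) and a net fall of 2.03 on the log2 scale, from 4.19, 3.86 and 3.03 RPKM to 0.825, 0.854 and 0.79 RPKM. Mmp13, the collagenase-3 gene, was at 5.38, 3.91 and 2.71 RPKM, then 89.4, 67.4 and 75.2 RPKM, then 1.02, 1.19 and 1.69 RPKM (net −1.53, SE 0.29, adjusted p = 5.35e-04, induction step −5.81). Mmp10, the stromelysin-2 gene, with levels of 6.22, 5.22 and 4.26 RPKM before and 2.39, 2.81 and 1.98 RPKM after (net −1.10, adjusted p = 0.00212), was no longer called without library 1, when its net difference was −0.96. In the other direction Gstt1, a glutathione S-transferase of the theta class, fell with the vector from 0.44, 0.385 and 0.521 RPKM to 0.219, 0.205 and 0.238 RPKM and then rose to 5.71, 6.26 and 4.69 RPKM (net 3.36, SE 0.122). The vector fall of Gstt1 lay at low levels. With a constant of 1, or a log2 fold change above 1 required, Gstt1 counted as a rise by induction alone.

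Of 17 tested genes of matrix metalloproteinases and their inhibitors, 3 were called higher, 7 lower and 7 neither (median −0.49, vector step 0.38, induction step −0.55). The shares over all tested genes were 22.1% higher and 25.3% lower. The 5 overshoots among them were Mmp10, Mmp12 (−1.92), Mmp13, Adamts1 (−1.19) and, in the rising direction, Mmp19 (0.58), and the 2 returns were Mmp3 and Mmp11. Timp3, an inhibitor of these enzymes, fell in both steps from 6.17, 5.95 and 5.83 RPKM to 1.07, 0.89 and 1.15 RPKM (−2.43), and Adam12, a membrane protease, fell by 1.88 on the log2 scale. The net picture of the family was therefore mixed, with Mmp9 as its largest rise and the stromelysin and collagenase genes at or below their uninfected level.

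Chemokine and cytokine genes of the NF-kappaB and IL-1 response remained higher in induced cells than in uninfected cells. Of 35 tested genes, 20 were called higher (22.1% over all tested genes) and 4 lower (25.3%) in the net comparison, with a median log2 fold change of 1.25. In the vector step 26 were higher (10.4% over all tested genes) and 2 lower, and in the induction step 17 were lower (21.4%) and 8 higher. By class, 9 were partly returned, 6 were returns, 5 changed with the vector alone (4 of them upwards, with Cxcl12 the exception) and 5 moved in both steps. Il1a, coding for interleukin-1 alpha, was at 26.4, 21.2 and 14.8 RPKM, then 668, 427 and 609 RPKM, then 132, 171 and 123 RPKM (net 2.79, SE 0.275, adjusted p = 2.63e-06, induction step −1.99). Cxcl1, a neutrophil chemokine, was at 23.2, 20.3 and 19.4 RPKM, then 541, 368 and 520 RPKM, then 188, 259 and 187 RPKM (net 3.31, SE 0.192, adjusted p = 2.33e-08). For both genes the fall on induction left every induced library above every uninfected one. Cxcl3 and Cxcl2 ended at net differences of 2.91 and 1.55 after vector steps of 4.40 and 4.35, and reads of these close relatives of Cxcl1 may have been shared between copies. Fgfbp1, a carrier protein for fibroblast growth factors outside these lists, followed the same path from 7.65, 6.56 and 4.55 RPKM through 159, 121 and 158 RPKM to 39, 46.9 and 30.9 RPKM (2.63).

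Some members of this response did not follow the chemokines. Nfkbie, an inhibitor of NF-kappaB, changed in the induction step alone, from 1.96, 2.08 and 2.03 RPKM to 12.7, 12.8 and 12.3 RPKM (2.58, SE 0.0747, vector step −0.09). Csf2, coding for granulocyte-macrophage colony-stimulating factor, rose in both steps, from 0.0794, 0.0533 and 0.0622 RPKM through 1.31, 0.676 and 0.979 RPKM to 4.15, 5.77 and 3.74 RPKM (4.80). The 4 genes with a net fall were Il1rl1, Il6 (−1.67), Ptgs2 (−0.88) and Cxcl12, the CXCR4 ligand, which fell with the vector and did not change on induction (5.93, 5.27 and 4.67 RPKM to 1.1, 1.17 and 1.42 RPKM, −2.02). Among 34 genes of EGF ligands, AP-1 and ERK feedback, 8 were higher and 8 lower, close to the shares over all tested genes (22.1% and 25.3%). Ier3, an immediate early gene, was partly returned (net 1.67, vector step 3.25), and Hbegf rose with the vector alone (net 1.30, vector step 1.26). Areg (amphiregulin) and Epgn (epigen) ended below the uninfected level (−1.02 and −0.90), and Tgfa and Dusp4 fell by 1.00 and 0.85 on the log2 scale.

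Genes of cholesterol and fatty acid synthesis were higher in induced than in uninfected cells, and this rise was in place before induction. Of 33 tested genes, 28 were called higher (22.1% over all tested genes) and 0 lower by limma in the net comparison (median 1.50). The vector step had 29 higher and 0 lower (median 1.73), and the induction step 1 higher and 12 lower (median −0.34). With libraries 3 and 12 left out, 1 gene was called lower. By class, 17 were made by the vector alone, 9 were partly returned and 2 were returns. Nsdhl, a sterol dehydrogenase, was at 6.58, 5.7 and 5.07 RPKM, then 54.8, 47.1 and 51 RPKM, then 59.5, 63.1 and 63.7 RPKM (net 3.41, SE 0.105, adjusted p = 8.40e-11). Fdps, farnesyl diphosphate synthase, was at 26.4, 28 and 27.6 RPKM, then 240, 226 and 258 RPKM, then 182, 211 and 137 RPKM (2.67). Insig1, the sterol-regulated retention protein of the endoplasmic reticulum, had a net difference of 2.72, and Hsd17b7, which acts in the same synthesis, one of 3.54 with both steps called. Mgll, the monoacylglycerol lipase outside this list, was the mirror case, with 13.4, 14.7 and 15.5 RPKM, then 1.3, 1.62 and 1.54 RPKM, then 1.45, 1.42 and 1.11 RPKM (−3.36, induction step −0.15). The sterol regulatory element, taken as CACCCCAC on either strand, was in 0 of the 22 promoters of this list and in 2.77% of all promoters, which says only that these letters are not in these windows.

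**Figure D3:**
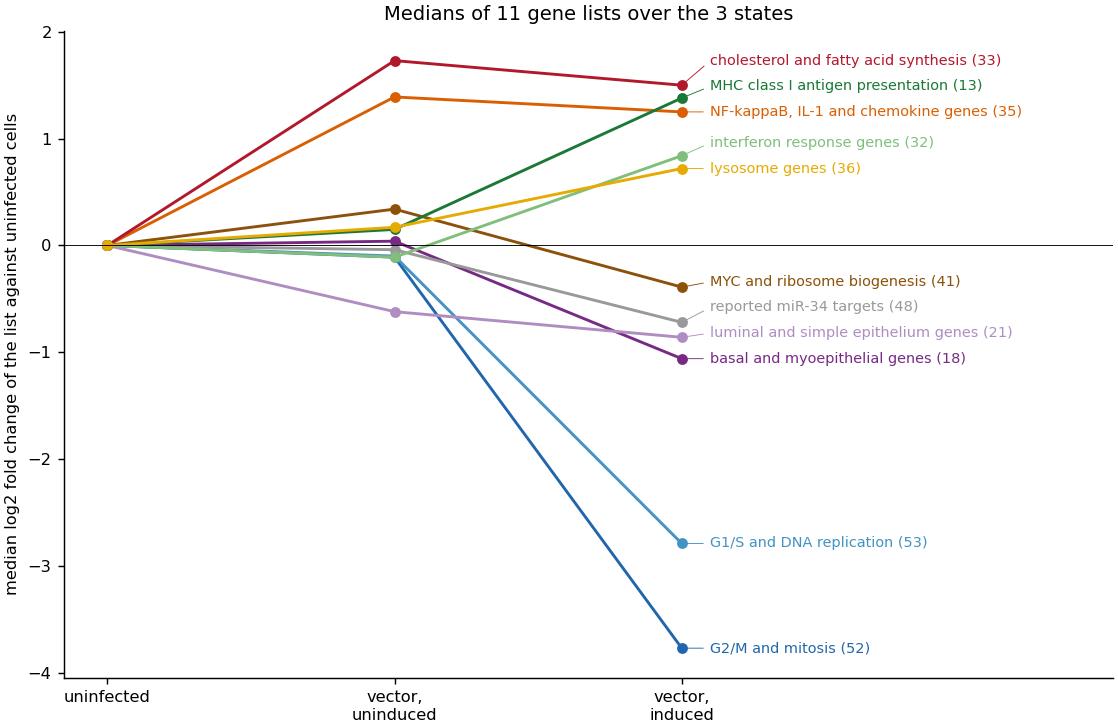
Median log2 fold change of 11 gene lists relative to uninfected cells, at uninfected cells (0), at cells with the uninduced vector and at induced cells. The cell cycle lists stayed near 0 until induction and then dropped to −2.79 and −3.77, and the cholesterol list had risen to 1.73 before induction and ended at 1.50. The NF-kappaB list went from 1.39 to 1.25, while 17 of its 35 tested genes were called lower and 8 higher in the induction step.

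Interferon response genes and the antigen-presenting machinery rose, and by the medians the induction step carried the change. Of 32 tested interferon genes, 20 were called higher (22.1% over all tested genes) and 1 lower (median 0.84, vector step −0.11, induction step 0.91), and 16 of the net calls, Ifit2 among them, were made by induction alone. Summed over the 40 listed genes, the level was 221 to 264 RPKM in uninfected, 383 to 410 RPKM in Sca-highNT and 355 to 368 RPKM in induced libraries. That sum had thus risen before induction. Irf7, a transcription factor of the antiviral response, was at 0.426, 0.399 and 0.399 RPKM, then 0.433, 0.443 and 0.331 RPKM, then 2.33, 2.51 and 2.12 RPKM (2.25, SE 0.125, adjusted p = 1.63e-08). Irf1 rose from 10, 10.5 and 11.6 RPKM to 24.3, 23.7 and 21.3 RPKM (1.10). The exception was Ifit2, an RNA-binding protein of the same response, which fell from 3.87, 3.89 and 4.65 RPKM to 1.13, 1.22 and 1.11 RPKM (−1.75, SE 0.0931). Of 13 tested genes of MHC class I presentation, 10 were higher and 0 lower by limma (median 1.38). Psme1 and Psme2, which code for the proteasome activator PA28, rose from 18.3, 18.2 and 19.5 RPKM to 60.9, 66.1 and 53.7 RPKM (1.68) and from 30.2, 29 and 32.7 RPKM to 81.5, 82.7 and 74.8 RPKM (1.38). B2m, the light chain of MHC class I, had a net log2 fold change of 1.98, named here after its value was seen. Doxycycline and the miRNA came together in the induced libraries and cannot be told apart in these rises.

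Windows from 3 promoters of interferon genes are shown for the element they share, GAAANNGAAA on either strand, with its letters in capitals (RefSeq, GRCm38.p6, strand of the gene). They lie at chr3:142620595-142620622 (Gbp2, plus strand), chr19:34640776-34640803 (Ifit1, plus strand) and chr4:156200878-156200905 (Isg15, minus strand), and the element was found in 11 of 25 interferon promoters (44%), in 2.83% of the tested genes and in 3.49% of all promoters. Their net log2 fold changes were 1.01 (Gbp2, through the vector step), 0.82 (Ifit1) and 1.40 (Isg15):
Gbp2: ctcttttagTTTCACTTTCactgtctta
Ifit1: aggcttcagTTTCACTTTCcagtctcag
Isg15: atgccgtagGAAAAGGAAAccgaaacag

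The lineage genes of the mammary epithelium were mostly lower than in uninfected cells, on the luminal as on the basal side. Of 18 tested basal and myoepithelial genes, 12 were called lower (25.3% over all tested genes) and 2 higher (22.1%), with a median of −1.06. The fall belonged to the induction step (−1.44) rather than the vector step (0.04). Krt5 went from 598, 392 and 514 RPKM through 544, 543 and 421 RPKM to 157, 118 and 254 RPKM (−1.56, SE 0.268, adjusted p = 2.57e-04), and Trp63, coding for the transcription factor that maintains basal cells, from 19, 18.9 and 17 RPKM to 6.65, 6.14 and 7.74 RPKM (−1.41, SE 0.155). Acta2, the smooth muscle actin of myoepithelial cells, fell in both steps, from 40.1, 37.8 and 44.4 RPKM through 16.5, 20.7 and 17.3 RPKM to 4.82, 4.47 and 4.24 RPKM (−3.15). Lama3, a laminin chain of epithelial basement membranes, was raised by the vector and lowered in part by induction, and stayed above its uninfected level (net 1.29). Ly6a was at 8.89, 8.92 and 6.34 RPKM after induction and was not called (−0.50, adjusted p = 0.0543), although its net difference was −0.81 and called once a trend with gene length had been removed.

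Of 21 tested luminal and simple epithelium genes, 15 were called lower (25.3% over all tested genes) and 1 higher (22.1%). Their median was −0.86, with the vector step at −0.62 and the induction step at −0.10. Members low in Sca-high cells could pass the filter through the Sca-low libraries, where the 32 listed genes summed to 1370 to 1450 RPKM. In the uninfected Sca-high libraries that sum was 80.8 to 93.6 RPKM, so some falls may lie at low levels. The vector alone made 10 of the net calls. The summed level of the list was 74.5 to 84 RPKM in Sca-highNT and 45.9 to 50.1 RPKM in induced libraries. By that sum, unlike by the medians, most of the fall came in the induction step. Epcam, an adhesion molecule of simple epithelia, was at 2.39, 2.41 and 2.82 RPKM, then 0.773, 0.603 and 0.485 RPKM, then 0.508, 0.404 and 0.677 RPKM (−2.09). Krt8 fell with the vector alone (net −0.86). Its partner Krt18 was lowered by the vector (−1.76), raised by induction (0.59) and remained lower than in uninfected cells (net −1.16). The 1 gene that rose was Cldn4, a tight junction claudin, from 0.207, 0.152 and 0.334 RPKM to 0.791, 0.733 and 0.668 RPKM (1.36). It was below 1 RPKM in all 9 Sca-high libraries and passed the filter through the Sca-low libraries, and with a constant of 1 it was not called (0.49). For Krt18 the induction step and the net difference thus had opposite signs, with both called. Cd24a, of the luminal list, and Itga6, of the basal list, fell by 0.73 and 0.85 on the log2 scale. Both are surface markers used to sort mammary epithelium.

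Among 30 mesenchymal genes and genes of the epithelial to mesenchymal transition, 4 were called higher, 10 lower and 16 neither. Over all tested genes 22.1% were called higher and 25.3% lower. Postn, coding for the matrix protein periostin, fell with the vector, from 1.6, 2.08 and 2.13 RPKM to 0.0576, 0.151 and 0.135 RPKM, and was at 0.124, 0.103 and 0.0769 RPKM after induction (−3.34). Lox, which cross-links collagen, fell on induction (net −2.95, induction step −2.31), and Col5a2 and Sparc, of the matrix, rose by 1.66 and 0.97. Vim fell with the vector (net −0.62) but was no longer called without libraries 3 and 12 (−0.46) or with the trimmed mean over all genes (−0.48). Snai2, a repressor of epithelial genes, was at 5.32, 4.95 and 2.92 RPKM and then 2.1, 1.86 and 3.65 RPKM (−0.79, adjusted p = 0.0233), and was called lower without library 3 or without library 12 (−1.04 each) and without both (−1.31). Cdh2 was not called (−0.13).

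In the Wnt pathway, 9 of 26 tested genes of Wnt reception were called lower and 4 higher (median −0.24). Over all tested genes 25.3% were called lower and 22.1% higher. The falls included Fzd1, Fzd2 and Fzd7, which code for frizzled receptors of Wnt proteins, while Fzd5 rose (0.61). Fzd7 went from 18, 17.3 and 16.6 RPKM through 10.5, 12 and 11.1 RPKM to 5.8, 5.55 and 6.93 RPKM (−1.50, SE 0.0858, adjusted p = 2.14e-08), Fzd1 had vector and induction steps of −0.69 and −0.59 (net −1.28), and Fzd2 steps of −0.73 and −0.35 (net −1.08), of which only the vector step was called. Pip5k1a, a phosphatidylinositol phosphate kinase, was a return, at 8.77, 8.29 and 9.37 RPKM, then 14.3, 12.5 and 13.2 RPKM, then 6.95, 7.18 and 8.14 RPKM (−0.25, adjusted p = 0.0142). Its fall on induction (−0.83) therefore followed a vector step of 0.59. Wls, which carries Wnt proteins to the cell surface, rose by 0.57 (0.49 and not called without library 1), and Lef1 was too low to test. Of 16 genes of Wnt ligands and targets, 3 were higher and 5 lower, close to the shares over all tested genes. Notum (on induction) and Nkd2 (with the vector), feedback inhibitors of the pathway, had net falls of 2.90 and 2.89 on the log2 scale. Wnt4 and Id2 rose by 0.63 and 0.93. Wnt4 was not called once the trend with gene length was removed (0.36).

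Of 24 Notch pathway genes, 10 were lower and 2 higher (median −0.25), beside 25.3% lower and 22.1% higher over all tested genes. Notch1 was at 6.32, 5.63 and 3.92 RPKM, then 1.08, 1.77 and 1.1 RPKM, then 0.353, 0.239 and 0.408 RPKM (−3.63, SE 0.213, adjusted p = 2.63e-08), with steps of −1.93 and −1.69. Dtx4, a regulator of Notch, fell with the vector alone (net −1.34, vector step −1.44). Dtx4 went from 0.865, 0.773 and 0.757 RPKM to 0.253, 0.206 and 0.313 RPKM after induction. It was below 1 RPKM in all 9 Sca-high libraries and passed the filter through the Sca-low libraries. Hes6 rose on induction (net 1.00). Psen2, a subunit of the gamma-secretase that cleaves Notch, overshot upwards (net 0.56, and 0.34 with no call at a constant of 1). Among 27 TGF-beta and BMP genes, 6 were higher and 7 lower (11 lower without libraries 3 and 12), close to the 22.1% and 25.3% over all tested genes. Tgfb3 fell with the vector, from 5.03, 4.62 and 4.88 RPKM to 1.2, 0.985 and 1.23 RPKM after induction (net −2.00). Inhbb fell in both steps (net −1.73), Ltbp1 rose on induction (net 0.76), and Id3, a BMP target, was partly returned (net 1.19 after a vector step of 1.84).

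Among metabolic and organelle genes, 25 of 36 tested lysosome genes were called higher and 2 lower (median 0.72). Over all tested genes 22.1% were higher and 25.3% lower. Both steps took part in the rise of the list. The vector step had 12 higher, beside 10.4% over all tested genes, and 3 lower (median 0.17). The induction step had 18 higher, beside 17.5%, and 2 lower (median 0.52). Atp6v1a, the catalytic subunit of the proton pump that acidifies lysosomes, was at 8.81, 10.3 and 10.8 RPKM, then 16.5, 16.3 and 17.2 RPKM, then 72.5, 76.6 and 67.6 RPKM (2.85, SE 0.0781, adjusted p = 3.28e-11). Hexa, a lysosomal hexosaminidase, rose on induction from 4.17, 4.13 and 4.56 RPKM to 21.6, 22.3 and 18.5 RPKM (2.25). The 2 genes that fell were Scarb2, a lysosomal membrane protein, and Tfeb, the transcription factor of lysosome biogenesis (−0.68 and −0.70), and Tfeb was not called with a constant of 1 (−0.43). Of 30 glutathione and NRF2 genes, 10 were higher and 10 lower, so that the rise of Gstm5 and Gstt1 was not shared by the list. Mgst2 rose by 1.83, while Gsto1, an omega-class transferase, fell from 184, 202 and 222 RPKM to 58, 60.3 and 50.7 RPKM (−1.85). Gclc, of glutathione synthesis, fell with the vector (net −0.86).

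Of 32 hypoxia and glycolysis genes, 15 were lower and 2 higher (median −0.45). The counts of this and the next lists stand beside 25.3% lower and 22.1% higher over all tested genes. Aldoa, aldolase A of glycolysis, went from 268, 254 and 301 RPKM to 63.3, 59.1 and 60.7 RPKM (−2.16, SE 0.0815), while its paralogue Aldoc rose, and Ndrg1 fell by 2.26 on the log2 scale. The other gene that rose was Plin2, which coats lipid droplets (net 0.95, by the vector alone with a step of 1.04). Among 28 ATF4 and amino acid stress genes, 11 were lower and 2 higher: Trib3 and Mthfd2 fell by 2.70 and 1.50 on the log2 scale, and Cth and Nupr1 rose by 1.12 and 0.52. The call of Nupr1 was lost with the trend with gene length removed (0.16), without library 2 (0.41), with upper quartile scaling (0.49) and with a constant of 1 (0.50). Of 40 genes of mitochondrial translation and oxidative phosphorylation, 11 were higher, beside 22.1% over all tested genes, and 0 lower by limma (median 0.26). This count was 17 higher and 1 lower without libraries 3 and 12, 17 higher with the trimmed mean over all genes, and 3 higher and 1 lower once the trend with gene length was removed. Uqcrfs1 (0.70) and Ndufa1 (0.68) were then not called (0.46 and 0.36). Of 13 BCL2 family genes 5 were higher and 2 lower. Bcl2l1, coding for the anti-apoptotic BCL-XL, rose in both steps (7.83, 7.78 and 8.17 RPKM to 23.7, 23.7 and 22.3 RPKM, 1.54), Bad rose by 1.62, and Bok and Bcl2l11 fell by 2.19 and 0.71 on the log2 scale. Bcl2l11 was not called once the trend with gene length was removed (−0.47) or with a constant of 1 (−0.43).

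**Figure D4:**
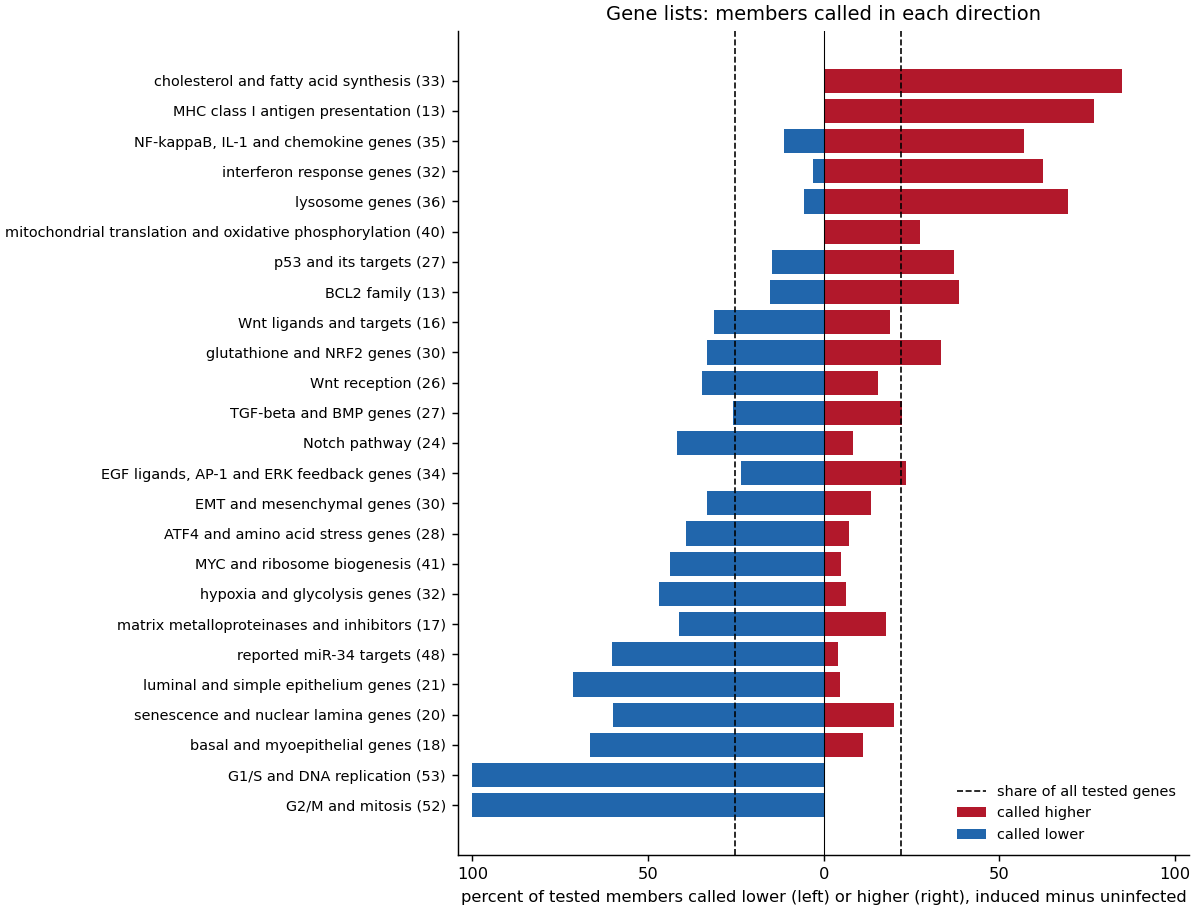
Share of the tested members of 25 gene lists that were called lower (left) and higher (right) in the net comparison, sorted by the median log2 fold change of the list. The dashed lines mark the shares over all tested genes, 25.3% lower and 22.1% higher: both cell cycle lists had every tested member lower, and cholesterol synthesis had 28 of 33 higher.

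Of 48 tested reported miR-34 targets, 29 were called lower and 2 higher (7 higher with the trimmed mean over all genes), beside 25.3% and 22.1% over all tested genes. Their median log2 fold change was −0.72 against −0.017 over all tested genes, with a median vector step of −0.04 and a median induction step of −0.47. Several of them belong also to the cell cycle. Ccne2, cyclin E2, whose site is printed above, was at 3.62, 4.16 and 4.59 RPKM, then 4.04, 3.44 and 4.01 RPKM, then 0.483, 0.518 and 0.433 RPKM (−2.86, SE 0.101, adjusted p = 2.86e-10), and Birc5, survivin, fell from 15.5, 14.4 and 16.3 RPKM to 1.03, 0.824 and 0.989 RPKM (−3.89). Axl, a receptor tyrosine kinase, had a net log2 fold change of −0.70 that came with induction, as did Cdk6, a kinase of the G1 phase (−1.09), and Notch2 (−1.58). The 2 genes with a net rise were Plaur, the urokinase receptor, which the vector raised (12, 11.8 and 13.8 RPKM to 23.2, 23.4 and 21.5 RPKM, 0.85), and Klf4 (0.67, adjusted p = 0.00514), whose call was lost without libraries 3 and 12 (0.36) and without library 2, 3, 10 or 12 alone (0.52 to 0.73). All 48 genes had an annotated 3′ UTR. A 7-base match to the seed was in 34, of which 22 were lower, and no match was in 14, of which 7 were lower.

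Across all genes, those with a seed match lay lower in induced than in uninfected cells. A match was 7 bases pairing with miRNA bases 2 to 8, or bases 2 to 7 followed by A, in the longest annotated 3′ UTR, which 10214 of the tested genes (96.5%) had. The 2386 genes with a match had a median net log2 fold change of −0.23, with 33.9% called lower and 14.8% higher, and the 7828 genes without had a median of 0.06, with 22.4% lower and 25.1% higher. The 620 genes with an 8-base match had a median of −0.34, with 41% lower. Among genes with a UTR of 1000 to 2000 bases, the medians were −0.26 with and 0.00 without a match, and with the cell cycle lists left out they were −0.22 and 0.07. The size of the shift moved with the processing: the medians were −0.14 and 0.05 once the trend with gene length was removed, −0.26 and 0.10 without libraries 3 and 12, and −0.09 and 0.20 with the trimmed mean over all genes. In the vector step alone the medians were −0.06 and 0.03, and in the induction step −0.17 and 0.02.

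The share of genes with a match differed between the classes. Over all tested genes with a UTR it was 23.4%, among net falls 31.5% and among net rises 15.2%. Net falls made by induction alone had a match in 29.6% and falls made by both steps in 40.2%, and rises made by induction alone in 14.2%. The miRNA had not been induced in the vector step, though Mir34a reads were 4.49 times the uninfected level (1.27 to 24.19), on few reads. Falls made by the vector step alone had a match in 32.3%, and their UTRs were longer (median 1670 bases against 1196 over all). Within UTRs of 1000 to 2000 bases the share was 25.2% of the 131 falls by the vector against 33.9% of the 369 falls by induction and 24.6% over all genes of that length. Returns that induction had lowered had a match in 27.1%, and in 35.6% of the 59 with UTRs of 1000 to 2000 bases. Overshoots that ended lower had a match in 23.5%, over UTRs of all lengths. No test was made of the difference between the classes. Snai1, a repressor of epithelial genes whose site is printed above, was a fall by the vector alone (net −0.78, vector step −1.13, induction step 0.35).

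**Figure D5:**
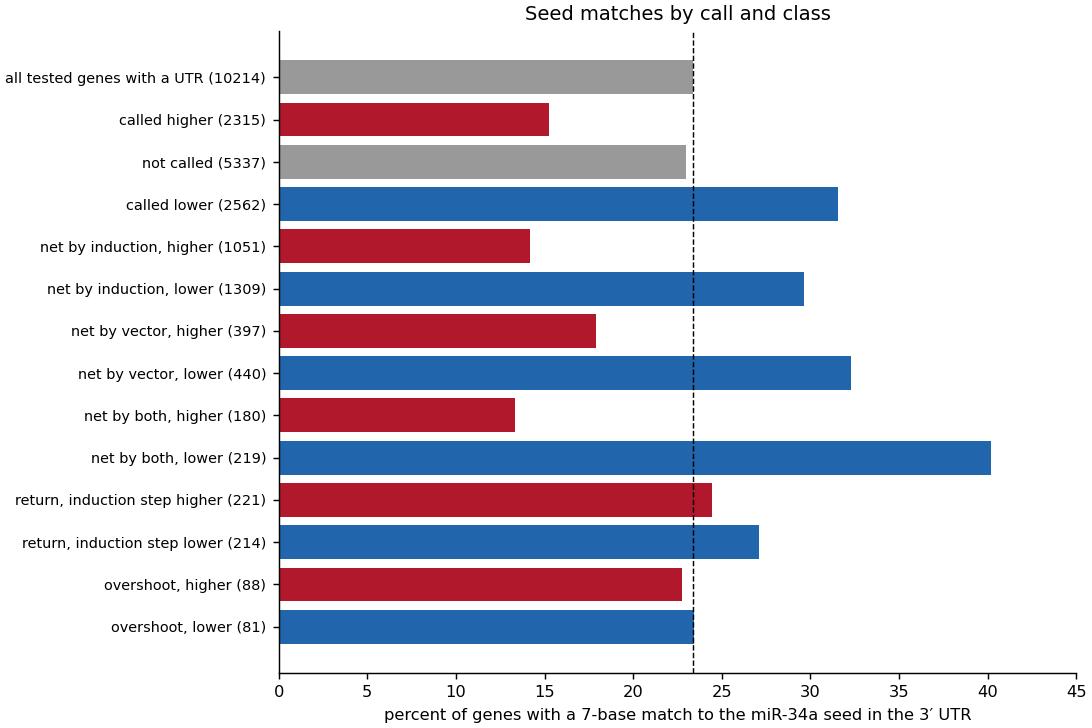
Share of genes whose longest 3′ UTR holds a 7-base match to the miR-34a seed, by net call and by class, with the dashed line at 23.4% over all tested genes with a UTR. Net falls lie above the line at 31.5% and net rises below it at 15.2%, and the falls made by the vector alone lie at 32.3%.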

How the data were processed

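RNA from 12 libraries of sorted CommaDβ cells (miRNeasy kit, TruSeq libraries) was aligned by the authors to mm9 with TopHat2 2.0.6, per the labels. How reads were counted, and with which annotation, is not given in the sources used here. Named as raw reads, the deposited table holds RPKM values computed by the authors for 21853 rows, of which 182 carry no gene symbol (0.09422% of reads or less in each library) and 92 of these are spike-in controls at 0. The authors' DESeq2 columns (baseMean, log2 fold changes, p-values, selections of genes) and group means were not used, except that baseMean, a mean the authors computed over 6 libraries from reads divided by size factors, helped to recover whole reads: 99.87% of 196893 values above 0 came out within 0.1 of a whole number, from 4641 low genes.

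From the deposited RPKM values, levels were scaled between libraries by an unweighted trimmed mean (30% of ratios and 5% of levels trimmed), genes with 1 RPKM in at least 3 of 12 libraries were kept, and log2(RPKM + 0.1) was fitted with limma 3.58.1 in R 4.3.3 (4 group means, 8 residual degrees of freedom, trended variance, Benjamini-Hochberg adjustment over 10586 genes). Fold changes are on the log2(RPKM + 0.1) scale, which understates those of low genes. Limma-voom on the recovered reads was an alternative. Scripts also used Python 3.11.15, and were tested on simulated data. Other settings were tried in scaling, constant, filter, thresholds and libraries, and the closing section gives their effect.

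Genes, lists and classes were chosen with earlier results of these data known. Genes named are the 12 largest rises and 12 largest falls (5 RPKM or more in the higher group, no overlap, no predicted genes or ribosomal pseudogenes), 2 rises and 2 falls of each of 29 lists by smallest p, 5 of each class by its defining step, and genes of interest to the study. Others are named where a count of 5 or fewer is spelled out, or after their values were seen. Groups follow titles and source names, since the genotype tag of the 2 vector groups is the reverse of these. Seed sites come from GENCODE vM21 and promoters and miRNAs from RefSeq, on GRCm38.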

Additional observations from a re-analysis of the deposited data

How the results depend on the processing

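Of 220 values for the counts of called genes and classes under the alternatives, 192 stayed within 1.5 times the reported count and 28 did not. Of 2987 values for 138 named genes, 58 lost their call, 17 gained one and 0 changed direction with a call in either setting. With 1 RPKM required in every library (8441 genes) 1784 genes were lower, with 260 returns, 68 overshoots, 63 partial returns, 533 changes by the vector and 197 by both steps. With a constant of 1 there were 75 overshoots, 79 partial returns and 222 changes by both steps. Without libraries 3 and 12, 711 genes changed by both steps. At an adjusted p below 0.05 and no fold minimum, 7702 genes were called, 3766 of them higher, with 908 returns, 791 overshoots, 392 partial returns, 1469 changes by the vector, 1584 by both steps and 587 by the sum. With a log2 fold change above 1, 2298 were called, 881 higher and 1417 lower, with 119 returns, 30 overshoots, 32 partial returns, 1113 changes by induction, 369 by the vector and 60 by both steps. An interval within 0.5 of 0 left 276 returns. Leaving out 1 library at a time gave 2224 to 2616 genes higher and 2447 to 2812 lower. Limma-voom on recovered reads gave 2533 higher and 2623 lower.

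No paired analysis was possible because the columns carry running numbers from 1 to 12 and not the replicate numbers of the labels. With 3 libraries a group and no record of separate cultures, the precision covers these libraries only, and genes short of 1 RPKM in 3 of the 12 libraries, such as Lef1, were not tested. Deposited values allowed no DESeq2 or edgeR test on the authors' own counts.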
